A study of Rattus norvegicus with 9 samples.

Results

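To follow ADAMTS proteases and the tissue inhibitors of metalloproteinases (TIMPs) in ischemic vessels, 10 genes were taken by their symbols from a table of 37203 gene symbols. They were 5 proteoglycan-cleaving proteases (Adamts1, Adamts4, Adamts5, Adamts9 and Adamts15), Adamts2, and 4 inhibitors (Timp1, Timp2, Timp3 and Timp4). All 10 passed the filter on low counts, which left 15482 genes in the test. The RNA came from superior mesenteric arteries (SMAs), the vessels that feed most of the small intestine, of 8-week-old Sprague-Dawley rats. Normal, 1 h ischemia and 4 h ischemia groups held 3 rats each, and no group carried a genetic change. Ischemia was a hemorrhage model under pentobarbital in which blood was drawn from a femoral artery and time ran from the end of that procedure, so it was whole-body blood loss and not occlusion of the SMA. Whether the normal rats were anaesthetized or catheterized is not given in the sources used here.

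The extracellular matrix of an artery is cut by secreted proteases and guarded by their inhibitors. The ADAMTS enzymes are zinc proteases that carry thrombospondin repeats, leave the cell as proenzymes and are activated by furin-like convertases. Several of them cleave large proteoglycans such as versican and aggrecan, while Adamts2 codes for a procollagen N-proteinase that trims collagen precursors. TIMPs block matrix metalloproteinases, and Timp3, which is bound to the matrix, also codes for the main inhibitor of the aggrecanases made from Adamts4 and Adamts5. Both families are known in vessels for their part in matrix turnover.

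Libraries held 13114273 to 15504240 counts, and levels below are TMM-scaled counts per 1000000 counts of a library (CPM), so that 1 CPM stood for 12.1 to 17.9 counts. The tissue was checked by its markers. All 7 smooth muscle markers were tested, and their summed level ran from 9658 to 41675 CPM in normal rats, from 10601 to 38626 CPM at 1 h and from 20110 to 58396 CPM at 4 h. All 13 sympathetic neuron markers were tested too, and they summed to 27.3 to 538 CPM in normal rats, 846 to 7885 CPM at 1 h and 26.1 to 7927 CPM at 4 h. Replicates 1 and 3 at 1 h and replicate 3 at 4 h were each at 7709 CPM or more, and the other 6 libraries were at 846 CPM or less. Endothelial markers (7 of 7 tested) summed to 584 to 1461 CPM, 539 to 866 CPM and 423 to 781 CPM in the 3 groups. Of 6 neutrophil markers 2 were tested and Elane was at 0 in every library, with sums of at most 6.62 CPM. In whole tissue, fewer cells of a type and less RNA per cell cannot be told apart. Replicate numbers are those of the labels.

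Adamts1, Adamts9 and Adamts4 stood above normal at 1 h, and Adamts1 and Adamts9 still did at 4 h, but none of the 10 genes passed the test across all genes. Fold changes and adjusted p-values are from edgeR's quasi-likelihood test fitted to all 9 libraries, and a call needed both an adjusted p below 0.05 and more than a 1.5-fold difference. At 1 h against normal 0 of the 10 genes were called, against 0.0581% of all genes tested, while DESeq2, which called 4.53% of all genes, called 3 (Adamts1, Adamts4 and Adamts9). At an unadjusted p under 0.05 there were 4 of 10, all higher than normal (Adamts1, Adamts4, Adamts9 and Timp1), against 7.98% of all genes that were higher and 8.67% that were lower at that level. In 3 of the 10 all libraries at 1 h were above all normal ones, which held for 12.8% of all genes. At 4 h 0 of 10 were called, against 0.0904% of all genes, and DESeq2 called 2 (Adamts1 and Adamts9) and 3.94% of all genes. At an unadjusted p under 0.05 there were 3, again all higher (Adamts1, Adamts9 and Adamts15), against 5.07% of all genes that were higher and 7.35% that were lower. The same 3 genes had all libraries at 4 h above all normal ones, against 7.93% of all genes. With both ischemic groups averaged 0 of 10 were called, against 0.426%, while DESeq2 called 3 and 6.62% of all genes. There 3 genes were higher at an unadjusted p under 0.05 (Adamts1, Adamts4 and Adamts9), against 7.19% of all genes higher and 9.96% lower, and Adamts1 and Adamts9 did not overlap, against 3.99%. The median log2 fold change of the 10 genes was 0.42 at 1 h and 0.34 at 4 h, beside -0.0076 and 0.027 over all genes tested.

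**Figure D1:**
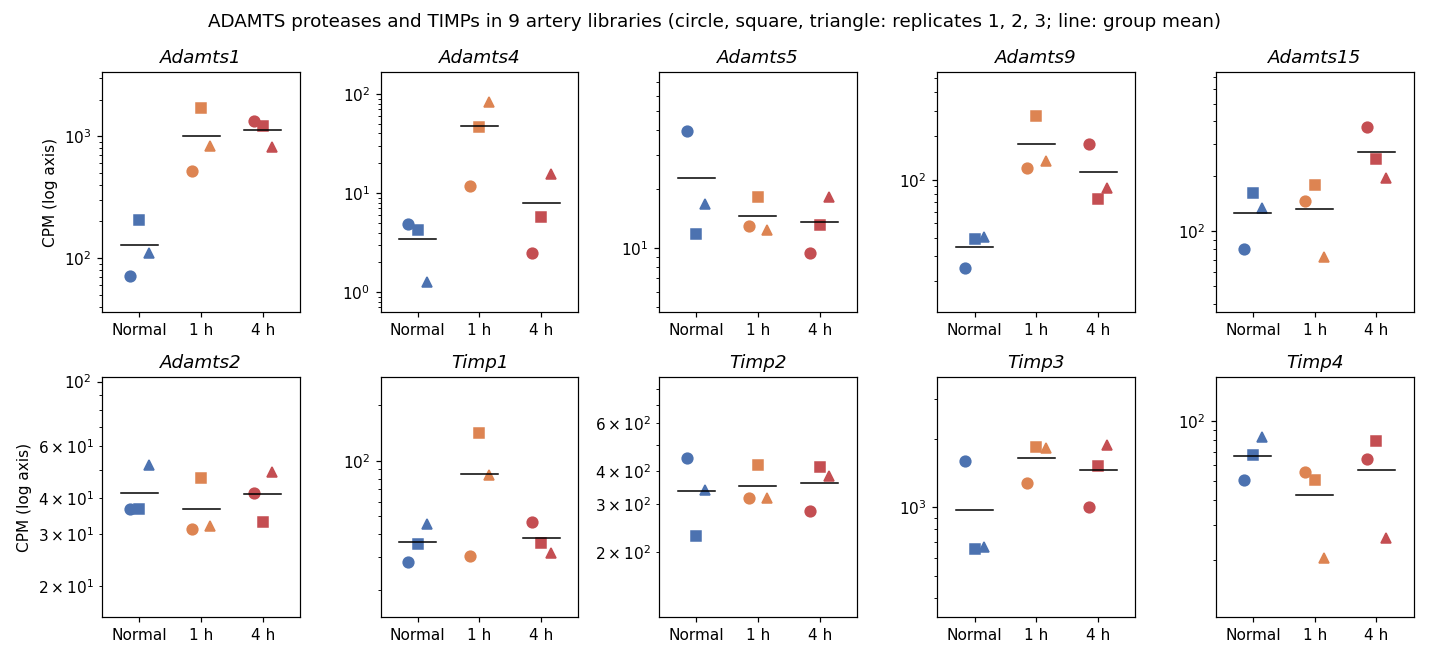
Level of each gene in CPM (log axis) in the 3 normal libraries and the 3 libraries each at 1 h and 4 h of ischemia, with the group mean as a line. All 6 ischemic libraries lie above the 3 normal ones for Adamts1 and Adamts9, while the groups overlap for each of the 4 Timp genes.

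Adamts1 codes for a protease that cleaves versican and aggrecan. It was at 71.9, 205 and 110.4 CPM in normal rats, at 517, 1698 and 828 CPM at 1 h, and at 1345, 1220.2 and 824 CPM at 4 h. Every ischemic library was at least at 517 CPM and every normal library at most at 205 CPM, so normal and ischemic libraries did not overlap. The mean was 129 ± 68.3 CPM in normal rats, 1014 ± 612 CPM at 1 h and 1129.9 ± 272 CPM at 4 h (SD, n = 3 each). Fitted together, these gave a log2 fold change of 2.98 at 1 h (SE 0.56, adjusted p = 0.139) and of 3.13 at 4 h (SE 0.57, adjusted p = 0.0789), which are folds of 7.87 and 8.76. With both ischemic groups averaged against normal it was 3.05 (SE 0.53, adjusted p = 0.0579). When one library at a time was left out, the log2 fold change ran from 2.38 to 3.46 at 1 h and from 2.84 to 3.63 at 4 h, with adjusted p from 0.096 to 0.489 and from 0.0978 to 0.266.

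Adamts9 codes for a protease of the versican-cleaving group. It was at 24.5, 38.8 and 40.6 CPM in normal rats, at 121, 277 and 135 CPM at 1 h, and at 175, 74.3 and 87.6 CPM at 4 h. As for Adamts1, every ischemic library was above every normal one. Its log2 fold change was 2.36 at 1 h (SE 0.45, adjusted p = 0.145) and 1.70 at 4 h (SE 0.44, adjusted p = 0.184). Against normal with both ischemic groups averaged it was 2.03 (SE 0.41, adjusted p = 0.0793). Without any one library it stayed between 1.88 and 2.57 at 1 h and between 1.20 and 1.92 at 4 h. At 1 h replicate 2 was the highest library for both Adamts1 and Adamts9, and at 4 h replicate 1 was.

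The scores of nerve and smooth muscle were also entered as covariates, since both tissue sources varied between libraries. The nerve score was the mean log2 CPM of the sympathetic neuron and Schwann cell markers, and the smooth muscle score that of the smooth muscle markers. With the nerve score Adamts1 was called at both times, with log2 fold changes of 3.72 (SE 0.48, adjusted p = 0.044) and 3.29 (SE 0.41, adjusted p = 0.0203). With the smooth muscle score they were 3.16 (SE 0.41, adjusted p = 0.0447) and 2.94 (SE 0.41, adjusted p = 0.0395). Adamts9 was called at 1 h with the smooth muscle score, at 2.46 (SE 0.33, adjusted p = 0.0481), and not with the nerve score, at 2.76 (SE 0.45, adjusted p = 0.114). At 4 h Adamts9 was at 1.71 with the nerve score and 1.47 with the smooth muscle score, with adjusted p of 0.1 and 0.11. More genes were called in these fits than without a score. With the nerve score 0.11% of all genes were called at 1 h and 0.704% at 4 h, and with the smooth muscle score 0.187% and 0.555%.

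Of the 10 genes, 8 had an entry in the RefSeq promoter table of assembly GRCr8 (all but Adamts5 and Adamts15). The promoters of Adamts1 and Adamts9 are shown because both genes were above normal in all 6 ischemic libraries. Each line holds the 250 bases before the start of the gene, read 5′ to 3′ along the gene. Capitals mark matches to the motifs searched, on either strand.
Adamts1: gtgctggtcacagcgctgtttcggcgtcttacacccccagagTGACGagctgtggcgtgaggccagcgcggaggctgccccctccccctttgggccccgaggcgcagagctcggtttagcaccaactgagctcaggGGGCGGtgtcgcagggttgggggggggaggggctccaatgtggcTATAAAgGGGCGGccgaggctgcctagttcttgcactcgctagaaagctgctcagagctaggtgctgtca
Adamts9: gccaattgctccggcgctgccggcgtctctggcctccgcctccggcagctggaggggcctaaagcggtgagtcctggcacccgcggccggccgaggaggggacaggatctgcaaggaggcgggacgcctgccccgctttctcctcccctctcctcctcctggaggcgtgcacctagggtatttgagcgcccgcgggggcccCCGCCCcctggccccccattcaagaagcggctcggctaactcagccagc
The first lies at chr11:38427385-38427634 on the minus strand and the second at chr4:127019877-127020126 on the minus strand. Adamts1 held 1 CRE core (TGACG), 208 bases before the start, a TATA box (TATAAA) at 70 bases and 2 GC boxes (GGGCGG) at 114 and 63 bases. Adamts9 held 1 GC box, at 49 bases on the other strand. A CRE core was found in 18.2% of 33469 promoters of the same length, a TATA box in 12.9% and a GC box in 30.5%. Neither window held the letters of a full CRE (TGACGTCA, 1.59% of promoters), an AP-1 site (TGANTCA, 6.34%), the ACGTG form of the hypoxia response core (16.6%), an NF-kB site (GGG, 2 free bases, TT, a free base and CC, 4.36%), a glucocorticoid receptor hexamer (TGTTCT, 17.5%) or a CArG box (1.5%). The other form of the hypoxia response core, GCGTG, was not searched or counted, and both windows hold those letters. These matches describe letters and are no evidence of binding.

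Adamts4 codes for an aggrecanase. It was low in normal rats, at 4.87, 4.23 and 1.26 CPM, which are 87, 58 and 17 counts. At 1 h it was at 11.8, 46.3 and 83.8 CPM, above all normal libraries, and at 4 h it was at 2.48, 5.72 and 15.6 CPM, which overlapped normal. Its log2 fold change was 3.77 at 1 h (SE 0.94, adjusted p = 0.21) and 1.20 at 4 h (SE 0.87, adjusted p = 0.592). Between 4 h and 1 h the difference was -2.57 (SE 0.89, adjusted p = 0.856), with a 95% interval from -4.61 to -0.53, and the values of the stages overlapped. The 3 libraries with the most sympathetic neuron RNA were replicates 1 and 3 at 1 h and replicate 3 at 4 h. At 1 h replicate 1 was the lowest library for Adamts4 (11.8 CPM) and replicate 3 the highest (83.8 CPM). At 4 h the highest library was replicate 3, and without it the change at 4 h was 0.24. With the nerve score it was 3.07 at 1 h and 0.84 at 4 h.

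Adamts5, which codes for the other main aggrecanase, did not follow Adamts4. It was at 39.6, 11.8 and 16.8 CPM in normal rats, at 12.9, 18.3 and 12.3 CPM at 1 h, and at 9.43, 13.2 and 18.3 CPM at 4 h. The one high value was normal replicate 1, the normal library with the least smooth muscle RNA, and the groups overlapped. In that library Schwann cell markers summed to 3931 CPM, against 118 and 648 CPM in normal replicates 2 and 3. Adipocyte markers summed to 2614 CPM there, against 599 and 447 CPM. Fitted log2 fold changes were -0.65 at 1 h (SE 0.46, adjusted p = 0.448) and -0.74 at 4 h (SE 0.46, adjusted p = 0.546). Without normal replicate 1 these values were 0.023 and -0.069. Entering the nerve score gave -1.07 (SE 0.40, adjusted p = 0.434) and -0.70 (SE 0.36, adjusted p = 0.388), and entering the smooth muscle score -0.54 and -0.44.

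Adamts15 codes for a further protease of the versican-cleaving group. It was at 80.4, 163 and 134 CPM in normal rats, at 147, 179.8 and 72.1 CPM at 1 h, and at 374, 249.9 and 197 CPM at 4 h. All libraries at 4 h were above all others, those at 1 h included. The log2 fold change was 0.08 at 1 h (SE 0.41, adjusted p = 0.928), 1.12 at 4 h against normal (SE 0.41, adjusted p = 0.322) and 1.04 at 4 h against 1 h (SE 0.41, adjusted p = 0.856). In the last comparison 0 genes were called, and 3.2% of all genes had all libraries at 4 h above all at 1 h. Within groups Adamts15 was lowest where smooth muscle RNA was lowest, in normal replicate 1, in replicate 3 at 1 h and in replicate 3 at 4 h. With the smooth muscle score the change at 4 h was 0.86 (SE 0.19, adjusted p = 0.108). The fit with the nerve score gave 1.16 at 4 h and 0.62 at 1 h (SE 0.36, adjusted p = 0.619).

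Adamts2, the procollagen N-proteinase gene, varied least among the proteases. Its values lay between 36.5 and 51.8 CPM in normal rats, between 31.2 and 46.6 CPM at 1 h and between 33.2 and 48.9 CPM at 4 h. The log2 fold change was -0.18 at 1 h (95% interval -0.74 to 0.37) and -0.01 at 4 h (95% interval -0.57 to 0.55).

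**Figure D2:**
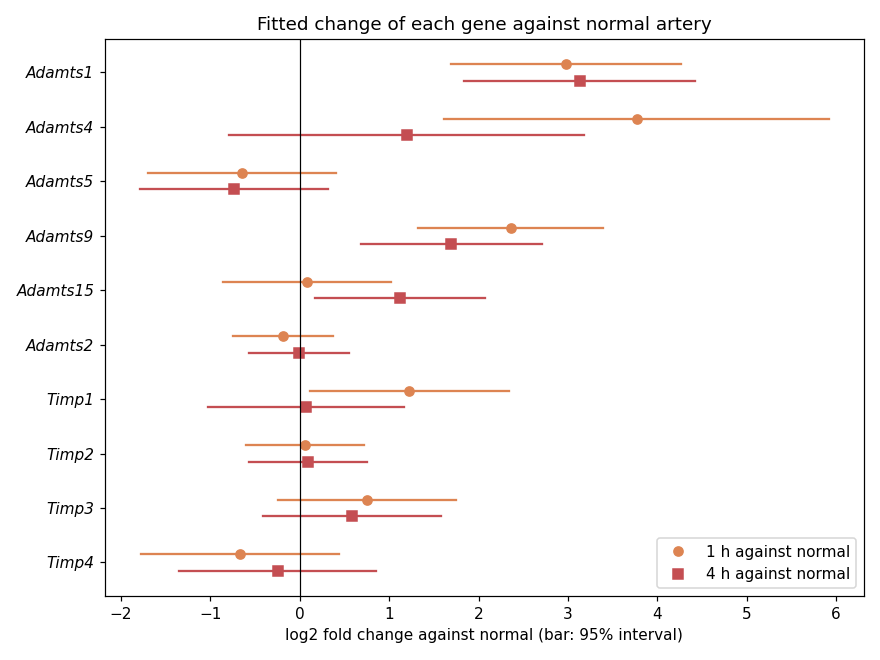
Fitted log2 fold change of each gene at 1 h (circles) and 4 h (squares) against normal, with 95% intervals that are not adjusted for the number of genes tested. The intervals of Adamts1 and Adamts9 lie above 0 at both times, those of Adamts4 and Timp1 only at 1 h, and that of Adamts15 only at 4 h.

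Among the inhibitors, Timp1 is the inducible member that is secreted in soluble form. It was at 28.3, 35.5 and 45.5 CPM in normal rats, at 30.4, 142 and 83.4 CPM at 1 h, and at 46.7, 36.0 and 31.8 CPM at 4 h. Replicates 2 and 3 at 1 h were above all other libraries, while replicate 1 at 1 h lay within the normal range. The log2 fold change was 1.23 at 1 h (SE 0.48, adjusted p = 0.285) and 0.07 at 4 h (SE 0.48, adjusted p = 0.97), and the value at 4 h was -0.10 under scaling by library size alone, where the median of all genes was -0.15. Without replicate 2 at 1 h or any other single library the value at 1 h ran from 0.64 to 1.63. Between 4 h and 1 h it was -1.16 (SE 0.48, adjusted p = 0.856).

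Timp3 had values of 1607, 655 and 669 CPM in normal rats, 1275, 1840 and 1818 CPM at 1 h, and 1002, 1521 and 1872 CPM at 4 h. Normal replicate 1 was above 3 of the 6 ischemic libraries, and the other normal libraries were below all 6. Its log2 fold change was 0.75 at 1 h (SE 0.44, adjusted p = 0.367) and 0.58 at 4 h (SE 0.44, adjusted p = 0.6). Without normal replicate 1 it was 1.31 and 1.14. The nerve score of normal replicate 1 was 6.30, against 0.80 and 4.93 in normal replicates 2 and 3, and its smooth muscle score was 9.07 against 11.2 in both. In the fit with the nerve score the change of Timp3 was 0.38 at 1 h (SE 0.42, adjusted p = 0.804) and 0.59 at 4 h (SE 0.37, adjusted p = 0.477). With the smooth muscle score it was 0.78 (SE 0.27, adjusted p = 0.182) and 0.87 (SE 0.29, adjusted p = 0.198).

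Timp2, a constitutive inhibitor that also takes part in activating Mmp2, was at 444, 229 and 340.4 CPM in normal rats and between 283 and 419 CPM in the ischemic ones. Its log2 fold change was 0.06 at 1 h (95% interval -0.61 to 0.72) and 0.09 at 4 h (95% interval -0.57 to 0.75), and at 4 h it was -0.088 under scaling by library size alone. Timp4 ran from 50.3 to 83.5 CPM in normal rats, from 20.4 to 55.6 CPM at 1 h and from 25.7 to 79.4 CPM at 4 h. Its log2 fold changes were -0.67 (SE 0.48, adjusted p = 0.458) and -0.25 (SE 0.48, adjusted p = 0.861). The lowest libraries for Timp4 were replicate 3 at 1 h and replicate 3 at 4 h, which had the highest nerve scores, 8.22 and 8.15. Replicate 1 at 1 h had a nerve score of 7.97, yet its Timp4 was the highest of the 1 h group, at 55.6 CPM. Without replicate 3 at 4 h the value at 4 h was 0.10, and without replicate 3 at 1 h the value at 1 h was -0.36. Entering the nerve score gave -0.12 at 1 h (SE 0.46, adjusted p = 0.951) and -0.36 at 4 h (SE 0.40, adjusted p = 0.719), and with the smooth muscle score -0.59 at both times.

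**Figure D3:**
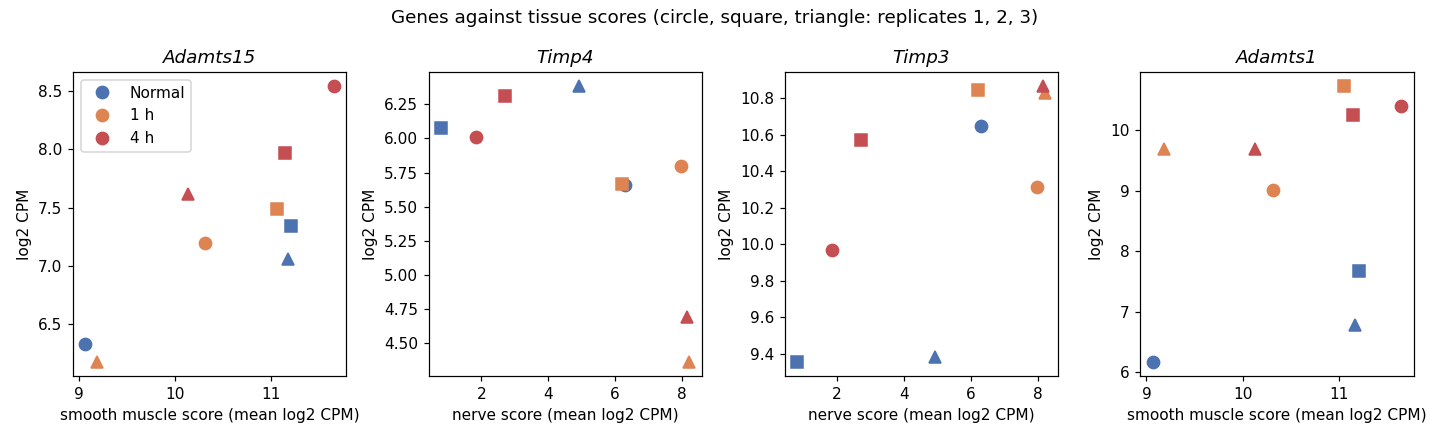
Level (log2 CPM) of Adamts15 and Adamts1 against the smooth muscle score, and of Timp4 and Timp3 against the nerve score, in 9 libraries coloured by group. Adamts15 is lowest in the libraries with scores of 9.07 and 9.19, while Adamts1 separates the normal libraries from the ischemic ones at low and at high scores.

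To compare proteases with inhibitors free of library scaling, log2 ratios of counts (each plus 0.5) were taken inside each library. Such ratios are not free of tissue makeup. Over the 9 libraries Pearson's r of log2 CPM with the nerve score was 0.66 for Timp3, 0.63 for Adamts4, 0.40 for Adamts5 and 0.04 for Adamts1. The part of tissue makeup in the ratios was not tested. Each ratio was tested over the 3 groups by an exact permutation test over all 1680 assignments of the libraries, where the smallest p possible is 0.00357. Ratios follow from the same counts as the values above. The 4 ratios were chosen with earlier results of these data known, and an adjustment over 4 ratios does not cover that choice. The log2 ratio of Adamts5 to Timp3 was -5.34, -5.79 and -5.32 in normal rats, and between -7.20 and -6.62 in the 6 ischemic libraries. All normal values were above all ischemic ones, while the values at 1 h and 4 h overlapped. The exact test gave p = 0.0357 (0.0476 adjusted over the 4 ratios). The means were -5.48 ± 0.27 in normal rats, -6.82 ± 0.33 at 1 h and -6.75 ± 0.09 at 4 h (SD, n = 3 each). Normal replicate 1, which was high for both genes, did not stand apart in their ratio.

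The ratio of Adamts1 to Timp3 differed in the other direction. In normal rats it was -4.48, -1.68 and -2.60, at 1 h -1.30, -0.12 and -1.14, and at 4 h 0.42, -0.32 and -1.18, so every ischemic library was above every normal one. The exact permutation test gave p = 0.0321 (0.0476 adjusted), and 0.0893 (0.124 adjusted) without normal replicate 1. Adamts4 to Timp3 was -8.21 ± 0.89 in normal rats, -5.50 ± 1.17 at 1 h and -7.86 ± 0.88 at 4 h (SD, n = 3 each; exact permutation p = 0.0357, adjusted 0.0476). Its values at 1 h were above all normal ones. Those at 4 h overlapped normal and lay below all at 1 h, narrowly so (highest at 4 h -6.91, lowest at 1 h -6.76). Timp1 to Timp2 did not pass (exact permutation p = 0.271). With groups permuted only within a replicate number (the replicate block), the exact p of each of the first 3 ratios was 0.111 and none of them passed. Adjusted values of these 3 ratios were 0.05 or more in every repeat with one library left out, except for Adamts5 to Timp3 without replicate 3 at 1 h (0.0286).

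**Figure D4:**
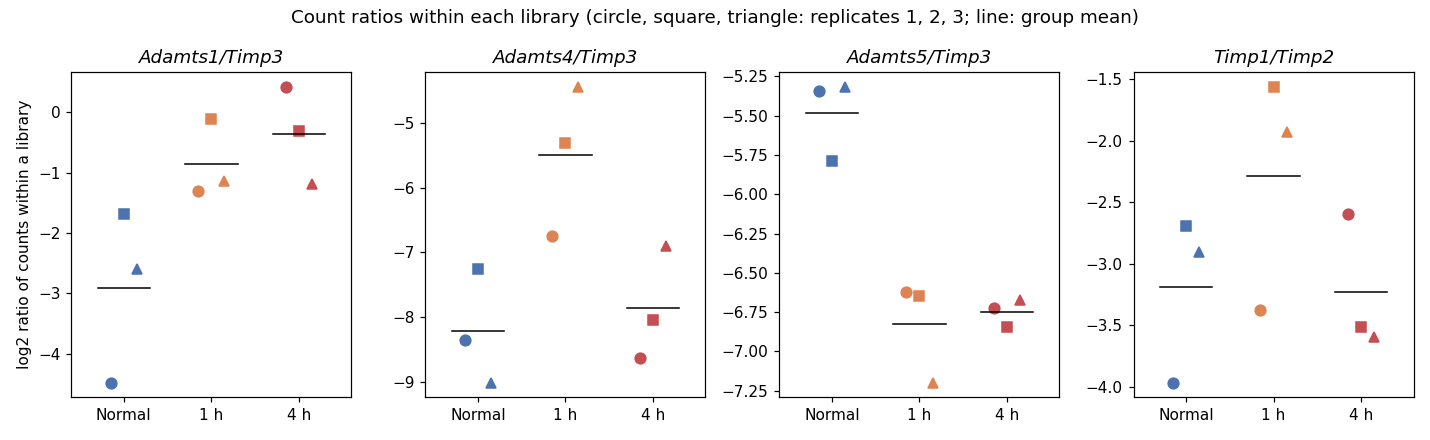
Log2 ratio of counts of 2 genes inside each library, for 3 normal libraries and 3 each at 1 h and 4 h, with the group mean as a line. Adamts1 to Timp3 is higher and Adamts5 to Timp3 lower in all 6 ischemic libraries than in the normal ones, while Timp1 to Timp2 overlaps.

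The stages were then set against each other gene by gene. Between 4 h and 1 h 0 of the 10 genes were called by edgeR or DESeq2, and 3 had an unadjusted p under 0.05 in edgeR (Adamts4 and Timp1 lower, against 1.25% of all genes, and Adamts15 higher, against 1.33%). Without replicate 3 at 1 h or without replicate 2 at 4 h that count was 0, and without normal replicate 3 it was 1. Adamts1 differed by 0.16 (95% interval -1.04 to 1.35) and Adamts9 by -0.66 (95% interval -1.65 to 0.33), so a difference of more than 2-fold between the stages was not excluded for either. Both stages share the normal libraries, and their changes against normal are not independent. Over the 3 groups together 0 of 10 genes were called and 5 had an unadjusted p under 0.05 (Adamts1, Adamts4, Adamts9, Adamts15 and Timp1), against 0.0388% and 11.4% of all genes, while DESeq2 called 3 and 4.32% of all genes.

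Genes around these proteases were counted from 7 lists chosen by function. Of 82 genes, 67 were tested, and edgeR called 0 of them at 1 h or 4 h. DESeq2 called 6 at 1 h and 3 at 4 h, where it called 4.53% and 3.94% of all genes. At an unadjusted p under 0.05, 11 were higher (16.4%) and 1 lower at 1 h, beside 7.98% and 8.67% of all genes, and 5 were higher and 2 lower at 4 h, beside 5.07% and 7.35%. Of 11 other ADAMTS proteases tested 1 was higher at that level at each time (Adamts3, which codes for another procollagen N-proteinase). The 8 tested of 18 matrix metalloproteinases and the 9 membrane ADAM proteases had 0 at either time by edgeR at that level and 0 calls by DESeq2. Of the 14 substrates 1 was higher at 1 h (Ncan, for neurocan) and 0 at 4 h, and of 7 ADAMTS-like genes Adamtsl2 was higher at each time and Papln lower at 4 h. The 11 activators, cofactors and clearance genes had 4 higher at 1 h (Sdc4, Thbs1, Tfpi2 and Furin) and 3 at 4 h (Furin, Sdc4 and Pcsk6), and the 7 genes of the hyaluronan and versican matrix had 4 higher at 1 h (Has1, Cd44, Tnfaip6 and Ptx3) and 1 lower at both times (Has3). Ncan was highest in the 3 libraries with the most sympathetic neuron RNA (5.15 and 6.08 CPM for replicates 1 and 3 of the 1 h group, 4.89 CPM for replicate 3 of the 4 h group) and was 0.67 CPM or less in the other 6. Adamts3 was also highest in these 3 libraries, at 12.2, 7.93 and 10.1 CPM in the same order. In the other 6 it was between 1.18 and 5.79 CPM, and its 4 h group overlapped normal. The edgeR test gave Adamts3 an adjusted p of 0.258 at 1 h and 0.39 at 4 h. The part of nerve RNA in these differences was not tested.

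Sdc4, the gene of the cell surface proteoglycan syndecan-4, was at 103, 66.3 and 67.2 CPM in normal rats, 131, 471 and 206 CPM at 1 h and 253, 256 and 202 CPM at 4 h. All ischemic libraries were above all normal ones, with log2 fold changes of 1.77 (SE 0.45, adjusted p = 0.21) and 1.59 (SE 0.45, adjusted p = 0.21). Furin, the gene of a convertase that activates ADAMTS proenzymes, had the same order, with changes of 0.79 (SE 0.29, adjusted p = 0.275) and 1.07 (SE 0.29, adjusted p = 0.201). Thbs1 codes for thrombospondin, a secreted matrix protein that shares its repeats with the ADAMTS family. It was at 80.4, 1464 and 730.5 CPM at 1 h, where replicates 2 and 3 were high as for Timp1, and between 56.7 and 153 CPM in normal rats and at 4 h. Its log2 fold change was 2.95 at 1 h (SE 0.90, adjusted p = 0.232) and 0.04 at 4 h.

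Tfpi2, the gene of a serine protease inhibitor of the matrix, was at 1.74, 31.1 and 50.4 CPM at 1 h and at most at 8.98 CPM elsewhere, with a change of 3.29 at 1 h (SE 1.11, adjusted p = 0.258) and of -2.63 from 1 h to 4 h (SE 1.08, adjusted p = 0.856). Ptx3, whose product stabilizes hyaluronan matrix, was at 1.11 to 1.46 CPM in normal rats and at 2.14, 3.28 and 36.2 CPM at 1 h (log2 fold change 3.36, SE 1.03, adjusted p = 0.232). Adamtsl2, which codes for an ADAMTS-like protein without protease activity, had changes of 1.81 (SE 0.63) and 1.73 (SE 0.63) with adjusted p of 0.262 and 0.317. Papln, the gene of the related protein papilin, was at -1.54 at 4 h (SE 0.56, adjusted p = 0.317), and normal replicate 1 was its highest library at 24.5 CPM. Adamts10, a fibrillin-associated member of the family, was at 0.99 between 4 h and 1 h (SE 0.44, adjusted p = 0.856), and its groups overlapped.

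Genes with the most similar pattern were listed for each of the 10 genes, by Pearson's r of log2 CPM over the 9 libraries against 10446 genes with a mean of at least 5 CPM. These values are descriptions, since the libraries share groups and tissue makeup. The nearest genes to Adamts1 were Csrnp1 and Arrdc3 (both at 0.986). Csrnp1 was at 11.7 to 19.9 CPM in normal rats and at 76.5 to 144 CPM in the ischemic ones. Adamts9 was nearest to Eif4a1 and Ube2d3 (both at 0.98), and Adamts4 to Selp (0.970), the gene of P-selectin, and Phlda1 (0.968). Selp was at 14.9, 114 and 139.8 CPM at 1 h and between 2.88 and 8.45 CPM in normal rats.

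The inhibitors had other neighbours. Timp1 was nearest to Rnf122 (0.937) and Runx1 (0.933), both high in replicates 2 and 3 at 1 h. Timp3 was nearest to Prr5 (0.988) and Cttnbp2nl (0.985), Timp2 to Plekhb1 (0.955) and Plekha4 (0.952), and Timp4 to Orc5 (0.962) and Taf4 (0.961). Adamts15 was nearest to Zfhx3 (0.969) and Gjc1 (0.962), Adamts5 to Ahr (0.954) and Metrnl (0.953), and Adamts2 to Ubtd2 (0.919) and Prc1 (0.889).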

How the data were processed

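Gene expression was measured by RNA sequencing of SMAs from 9 rats in 3 groups of 3. The authors deposited raw read counts per gene symbol. HISAT2 is named in the submitters' processing notes; its version, the counting program, genome build, annotation and strand setting are not given in the sources used here. The study's methods describe microarrays, and its results name both gene chips and transcriptome sequencing of these arteries. The deposited values are whole-number counts and were treated as such. All table columns matched a sample title.

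Counts were filtered with filterByExpr, scaled by TMM and tested in R 4.3.3 with edgeR 4.0.16 (quasi-likelihood, group as the only term, all 9 libraries). Adjustment over all 15482 genes followed Benjamini and Hochberg. The standard error is the log2 change divided by the square root of F. Alternatives were DESeq2 1.42.0, other scalings, no filter, covariates, a replicate block and leaving out each library. The test was run on counts simulated with known changes, and the outcome of that check is not given here. Those counts were drawn independently for each gene and library, so tissue makeup shared by many genes was not part of the simulation. No library was a copy of another (chi-square per degree of freedom of at least 29.9 for every pair). P-values of edgeR set a group difference against the spread between these libraries within groups. Those of the ratios set the observed F against its values over all assignments of the libraries.

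The genes, lists and ratios were chosen with earlier results of these data known. Text names all 10 genes, up to 3 genes of the related lists per contrast (smallest p, mean of at least 5 CPM), any called, and the 2 genes most like each of the 10. Adamts3, Ncan, Pcsk6, Has1, Cd44, Tnfaip6 and Has3 are named outside this rule, after their values were seen.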

Additional observations from a re-analysis of the deposited data

How the results depend on the processing

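None of the 10 genes was called by edgeR in any of the 5 comparisons, also after leaving out any 1 of the 9 libraries (0 in each), with other size factors, without the filter or with only the groups compared. DESeq2 called 3 genes at 1 h, 2 at 4 h, 3 for both ischemic groups against normal and 3 over the groups together. With the nerve score as a covariate 1, 1, 2 and 1 were called in these comparisons, and with the smooth muscle score 2, 1 and 2 in the first 3. Of all genes, DESeq2 called 4.53%, 3.94%, 6.62% and 4.32% in these comparisons, the fit with the nerve score 0.11%, 0.704%, 1.01% and 0.194%, and the fit with the smooth muscle score 0.187%, 0.555% and 2.19% in the first 3. For both ischemic groups the count at an unadjusted p under 0.05 was 5 with the smooth muscle score, against 3, where 24.4% of all genes were at that level, against 7.19% higher and 9.96% lower without it. With libraries left out, that count ranged from 3 to 4 at 1 h, from 2 to 4 at 4 h, from 0 to 2 between the stages, from 2 to 4 for both ischemic groups and from 3 to 4 over the 3 groups. The cause of these moves was not tested.

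Same-numbered libraries correlated from -0.651 to 0.66 in their deviations from the group means, so the replicate numbers were not taken as pairs. With a replicate block 0 of the 10 genes were called, and the counts at an unadjusted p under 0.05 were 3, 3, 2, 2 and 4 in the 5 comparisons, in the order 1 h, 4 h, 4 h against 1 h, both ischemic groups and all groups. With the block the exact permutation p of the ratios was 0.111 for Adamts1, Adamts4 and Adamts5 to Timp3 and 0.361 for Timp1 to Timp2, so the first 3 lost their call. When libraries were left out, the exact p ran from 0.0214 to 0.0893 for Adamts1 to Timp3, from 0.0214 to 0.114 for Adamts4 to Timp3, from 0.00714 to 0.0357 for Adamts5 to Timp3 and from 0.104 to 0.664 for Timp1 to Timp2.

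Directions turned for the following values, none of them called. At 1 h these were Adamts15 with the block (-0.0054) and Timp2 with the nerve score (-0.15). At 4 h they were Adamts2 with relative log expression factors (0.0013) or DESeq2 (0.0021), and Timp1 and Timp2 under scaling by library size alone (-0.10 and -0.088) and Timp1 with the smooth muscle score (-0.075). For 4 h against 1 h they were, with library size only, Adamts1 (-0.056) and Timp2 (-0.14), where the median of all genes was -0.24. With the nerve score they were Adamts1 (-0.43), Adamts5 (0.37), Timp3 (0.22) and Timp4 (-0.23), and with the smooth muscle score Adamts1 (-0.22), Adamts5 (0.10) and Timp3 (0.089). For both ischemic groups Timp2 was at -0.016 with library size only and -0.019 with the nerve score.

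When libraries were left out, values that turned ranged at 1 h from -0.95 to 0.023 for Adamts5, -0.20 to 0.36 for Adamts15, -0.16 to 0.30 for Timp2 and -0.40 to 0.0018 for Adamts2. At 4 h they ranged from -0.13 to 0.26 for Timp1, -0.11 to 0.33 for Timp2, -0.15 to 0.17 for Adamts2 and -0.57 to 0.10 for Timp4. Between the stages they ranged from -0.16 to 0.75 for Adamts1, -0.075 to 0.18 for Timp2, -0.36 to 0.11 for Adamts5 and -0.38 to 0.017 for Timp3. For both ischemic groups they ranged from -0.13 to 0.32 for Timp2 and -0.21 to 0.088 for Adamts2.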
